A study of Homo sapiens with 7 samples.

Results

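The genes MEG3, DLK1, SNRPN, PEG3, PEG10, MEST, PLAGL1, GNAS, NNAT and GRB10 are imprinted genes that lie outside the H19-IGF2 cluster on chromosome 11. They were chosen by name and are 10 of 64449 annotated genes. Of these, 9 belong to the 20163 protein-coding genes, and MEG3 is a long non-coding RNA. For each gene, every interval that the authors' peak caller reported over the gene body or within 10 kb of it was taken. HCT116 cells, a human colorectal carcinoma line, were grown in 96-well plates and crosslinked, and their chromatin was sheared in the wells with PIXUL, a multichannel ultrasound instrument. Each well held 200000 cells in 100 µl and was sonicated for 6 min. The cells were untreated as far as the labels say, and each antibody (H3K4me1, H3K4me3, H3K9Ac, H3K27Ac, H3K27me3, H3K36me3 and CTCF) gave 1 library from 1 well of a single cell line. The lists of 6 antibodies are described here, and H3K27Ac was not analysed here. There were no replicates, so no value below carries a replicate error and no test was made.

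Imprinted genes are transcribed mainly from the copy inherited from 1 parent. The choice is kept by DNA methylation that the egg or the sperm lays down at control regions, many of which are promoters rich in CpG, and many imprinted genes have a further promoter that escapes it. An active promoter usually carries H3K4me3 and H3K9Ac, H3K4me1 marks enhancers and the edges of promoters, H3K36me3 spreads over transcribed gene bodies, and H3K27me3 is laid down by Polycomb. CTCF is a zinc-finger protein that shapes chromatin loops and takes part in the control of some imprinted clusters. ChIP-seq reads were not assigned to a parental copy, so an interval may come from either copy or from both.

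An interval is described by its fold enrichment, which is a linear ratio to the background that the peak caller estimates locally, and by its q-value. The study's limits were a q-value below 1e-03 with a fold enrichment above 2 for H3K4me1 and H3K27me3, and a q-value below 1e-10 with a fold enrichment above 5 for H3K4me3, H3K9Ac and H3K36me3. The study's methods state no limit for CTCF, and the stricter limits were applied to it here. Intervals that meet these limits are called peaks past the limits below. Read counts are not part of the lists, which leaves the depth of the libraries unknown, and a gene without an interval is a gene where none was called. As a check of the cell type, 5 of 7 colon epithelial markers (EPCAM, CDH1, KRT8, KRT18 and CDX2) had H3K4me3 within 1 kb of the transcription start site (TSS), whereas VIL1 and CDX1 had none. Of the 5 annotated markers of other cells, PTPRC, CD3E, COL3A1 and ALB had none, and COL1A1 had H3K4me3 with a fold enrichment of 9.21.

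Apart from NNAT, the genes fell into those with little or no mark and those with a promoter that carried H3K4me3. MEG3, DLK1, SNRPN and PEG3 had between 0 and 2 intervals each and no H3K4me3, H3K9Ac or H3K36me3. PEG10, MEST, PLAGL1, GNAS and GRB10 had H3K4me3 at an annotated promoter, and NNAT had it only at the neighbouring gene BLCAP. GRB10 had 21 intervals, GNAS 20 and PLAGL1 15, and these were also the members with the widest regions apart from SNRPN, with 175087 bp, and MEG3, with 101622 bp. In all, 79 intervals lay over the 10 regions, and 34 of them were past the limits.

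H3K4me3 past the limits was found in the region of 6 of the 10 genes, where 69.1% of all protein-coding genes had it. For H3K9Ac the count was 5, beside 68.3% of all protein-coding genes, and for H3K4me1 it was 7, beside 71.9%. CTCF past the limits was found at 5 of the genes, beside 62.4%. No member had H3K36me3 or H3K27me3 past the limits, and few genes did in the whole lists, 0.789% for H3K36me3 and 3.94% for H3K27me3. For every antibody the count was less than 2 genes away from the background share of 10 genes. The members were longer than most, with a median gene length of 51063.5 bp against 27219 bp, which gives an interval more room to fall in.

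With all deposited intervals, H3K4me3 stayed at 6 of the 10 genes, beside 72.9% of all protein-coding genes. H3K9Ac was then found at 6 genes, beside 79.1%, and H3K4me1 at 7, beside 81.3%. H3K36me3 was found at 5 members (MEST, PLAGL1, GNAS, NNAT and GRB10), beside 65.9%. H3K27me3 was found at 4 (DLK1, PLAGL1, GNAS and GRB10), beside 30.0%. CTCF was found at 8, all but DLK1 and PEG3, beside 78.9%. These counts too were less than 2 genes away from the background share. PEG3 alone had no interval of any list, as did 4.78% of all protein-coding genes.

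At the TSS of the canonical transcript the counts were lower. Within 1 kb of it, 3 of the 10 genes (PEG10, PLAGL1 and GNAS) had H3K4me3 past the limits, beside 59.1% of all protein-coding genes. H3K9Ac past the limits lay there at PLAGL1 and GNAS, 2 genes, beside 58.5%. H3K4me1 past the limits lay there at PEG10 and GNAS, also 2, beside 49.1%. For these 3 marks the count at the canonical TSS lay farther below the background than the count over the region did, a difference that was not tested. CTCF past the limits lay there at 0 members, beside 13.6%, and so did H3K36me3, beside 0.298%, and H3K27me3, beside 1.22%. When every annotated TSS was used in place of the canonical one, H3K4me3 past the limits was found at 5 of the genes, MEST and GRB10 among them, beside 61.8% of all protein-coding genes. By the same rule H3K9Ac was found at 4, beside 61.1%, H3K4me1 at 5, beside 55.5%, and CTCF at 2, beside 21.7%. The annotated TSSs of the 10 genes form 66 promoters when those within 500 bp of each other are joined. H3K4me3 past the limits lay within 1 kb of 11 of them, beside 25.9% of the 69676 promoters of protein-coding genes.

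**Figure D1:**
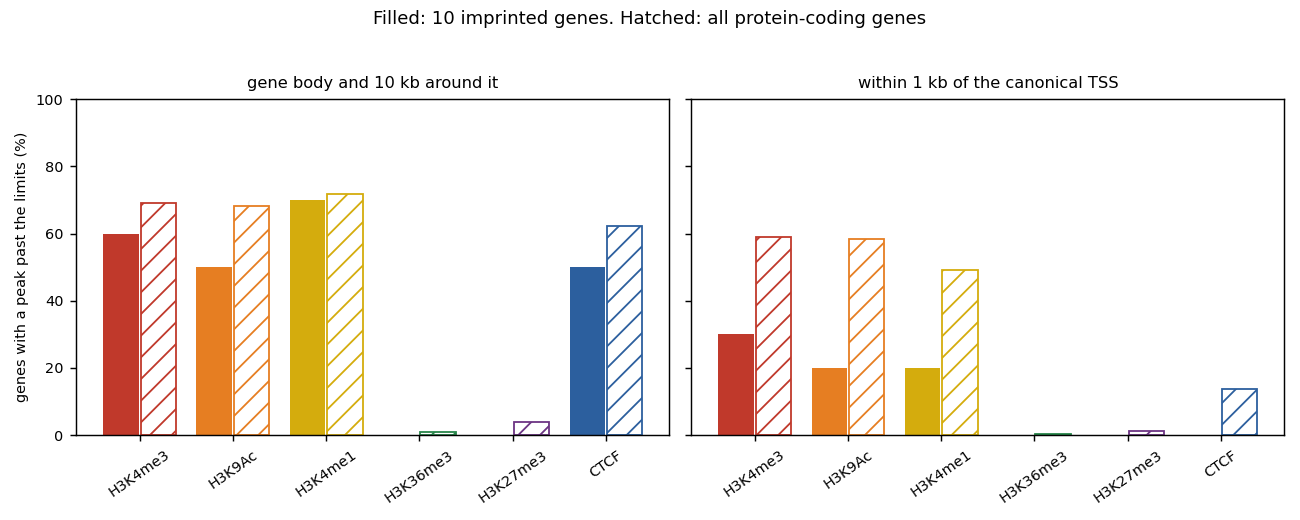
Share of genes (percent, vertical axis) with a peak past the limits for each antibody, in the gene body and 10 kb around it (left) and within 1 kb of the canonical TSS (right), for the 10 imprinted genes (filled bars) and all 20163 protein-coding genes (hatched bars). For H3K4me3 the filled bar stands for 6 of 10 genes on the left and 3 of 10 on the right, and the hatched bars are at 69.1% and 59.1%.

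DLK1 and MEG3 lie next to each other on chromosome 14 and belong to the same imprinted domain. DLK1 encodes a membrane protein with EGF-like repeats and is expressed from the paternal copy, and MEG3 is transcribed from the maternal copy. DLK1 (chr14:101192042-101204561, hg19, plus strand) had 1 interval in its region, an H3K27me3 interval 5525 bp upstream of the gene (chr14:101185428-101186517). Its fold enrichment was 2.72 and its −log10 q-value 1.23, short of the limit. At the 2 promoters of DLK1 no mark was called, and the nearest H3K4me3 peak past the limits lay 33.5 kb from the canonical TSS, with a fold enrichment of 6.53. H3K4me3 was as far away or farther for 27.7% of all protein-coding genes.

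MEG3 (chr14:101245747-101327368, hg19, plus strand) has 50 annotated transcripts from 12 promoters, and 27 of the transcripts start within chr14:101292435-101292532. None of the 12 promoters had an interval of any list within 1 kb, and the nearest H3K4me3 lay 86.0 kb from the canonical TSS. The only intervals in the region lay far inside the gene, 71.5 kb or more from the canonical TSS, and both were past the limits. CTCF covered chr14:101317285-101318007 at 15.5-fold enrichment (−log10 q-value 42.3), at percentile 91.8, which means that 91.8% of all CTCF intervals had this fold enrichment or a lower one. H3K4me1 covered chr14:101317426-101318343 at 5.08-fold enrichment (−log10 q-value 6.99), at percentile 77.9 of its list. This CTCF peak had the highest fold enrichment of the 22 CTCF intervals over the 10 genes. It is thus a CTCF and H3K4me1 site without H3K4me3 or H3K9Ac, within a gene whose promoters carried none of the marks.

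Of the 22 CTCF intervals, 9 were past the limits, and 4 of these 9 held the 12 bases of the CTCF core sequence on either strand, beside 22.4% of all CTCF peaks past the limits. None of the 13 weaker CTCF intervals held it, beside 7.52% of all CTCF intervals short of the limits. The 4 matches, which lay in MEG3, PLAGL1 and GRB10, are shown with 24 reference bases (hg19) on each side and the core in capitals, since they include the 2 CTCF peaks with the highest fold enrichment over the 10 genes. The MEG3 match lies at chr14:101317629-101317688 on the plus strand. The PLAGL1 matches lie at chr6:144263400-144263459 on the plus strand, within the coding sequence of the last exon, and at chr6:144334710-144334769 on the minus strand. The GRB10 match lies at chr7:50700765-50700824 on the minus strand.
MEG3: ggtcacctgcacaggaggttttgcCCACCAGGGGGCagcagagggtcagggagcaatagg
PLAGL1, last exon: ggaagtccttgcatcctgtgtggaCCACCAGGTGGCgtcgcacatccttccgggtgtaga
PLAGL1, upstream of the canonical TSS: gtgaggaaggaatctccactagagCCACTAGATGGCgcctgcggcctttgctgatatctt
GRB10: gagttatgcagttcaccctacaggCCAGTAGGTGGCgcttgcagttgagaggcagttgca

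SNRPN encodes a core protein of the spliceosome, and its canonical promoter is a control region of the imprinted domain that is lost in Prader-Willi syndrome. SNRPN (chr15:25068784-25223870, hg19, plus strand) has 3 promoters, and no interval of any list lay within 1 kb of them. The canonical promoter, from which 6 of 12 annotated transcripts start, is shared with SNURF. The only interval in the region of 175087 bp was CTCF at chr15:25092047-25092498, 107.6 kb upstream of the canonical TSS and between annotated exons. Its fold enrichment of 3.22 and −log10 q-value of 1.74 were the lowest of the 22 CTCF intervals over the 10 genes, at percentile 3.99 of the list. The nearest H3K4me3 to the canonical TSS lay 482.2 kb away, with a fold enrichment of 32.2, and H3K4me3 was as far away or farther for 4.04% of all protein-coding genes. That peak is at the promoter of UBE3A, a ubiquitin ligase gene of the same domain that is imprinted in neurons, named here after its value was seen. The 150 bases before the first TSS of the canonical SNRPN promoter (chr15:25199932-25200081, hg19, plus strand) are shown because this control region had no mark, with CpG dinucleotides, the sites of DNA methylation, in capitals. They hold 8 CpG and 70.0% G and C.
SNRPN, canonical promoter: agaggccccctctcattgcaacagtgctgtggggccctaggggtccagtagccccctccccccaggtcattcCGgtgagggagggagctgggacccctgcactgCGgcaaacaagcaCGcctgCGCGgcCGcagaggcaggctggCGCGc

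PEG3 encodes a zinc-finger protein expressed from the paternal copy. PEG3 (chr19:57321445-57352096, hg19, minus strand) has 18 annotated transcripts, and 13 of them start at the canonical promoter, whose TSS is shared with ZIM2. No interval of any of the 6 lists lay in its region of 50652 bp. The nearest H3K4me3 lay 350.1 kb from the canonical TSS, with a fold enrichment of 25.0, and the nearest CTCF past the limits lay 258.2 kb away, with a fold enrichment of 10.1. H3K4me3 was as far away or farther for 5.66% of all protein-coding genes. PEG3 was the member with the most matches to the motif of YY1, a zinc-finger protein that binds in the control region of PEG3. The motif AANATGGC was searched on both strands, and 13 matches lay in the 4000 bases that follow the canonical TSS, all in the same orientation, against the direction of transcription. In 4 of the 12 gaps between consecutive matches the distance was 138 bp. As many matches in this window were found for 0.00992% of all protein-coding genes, namely PEG3 and ZIM2, which share the window. The other members had between 0 and 3. The window was chosen after its sequence was seen. Part of this cluster is shown from intron 1 (chr19:57350754-57351053, hg19, minus strand), from 1041 to 1340 bp after the TSS, with 3 matches in capitals.
PEG3, intron 1: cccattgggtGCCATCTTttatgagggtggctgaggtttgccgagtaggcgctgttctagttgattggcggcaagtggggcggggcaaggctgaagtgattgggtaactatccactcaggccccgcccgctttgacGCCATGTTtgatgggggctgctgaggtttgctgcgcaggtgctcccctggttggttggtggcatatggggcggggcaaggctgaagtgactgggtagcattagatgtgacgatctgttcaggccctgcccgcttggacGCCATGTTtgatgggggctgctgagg

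PEG10, which derives from a retrotransposon, is expressed from the paternal copy and shares a bidirectional promoter with SGCE, the gene of epsilon-sarcoglycan. PEG10 (chr7:94285637-94299007, hg19, plus strand) had 4 intervals, all at this promoter. H3K4me3 covered chr7:94284064-94287068 at 7.49-fold enrichment (−log10 q-value 13.0), and the TSS of SGCE lay under it. This was the lowest fold enrichment of the 7 H3K4me3 intervals over the 10 genes, at percentile 23.8 of the list, where the other 6 lay between 13.6 and 26.1. H3K9Ac at the promoter was enriched 5.57-fold (−log10 q-value 8.15) and CTCF 6.38-fold (8.73), so both missed the limit on the q-value alone. H3K4me1 lay on the downstream side of the TSS, from 81 to 1083 bp, with a fold enrichment of 5.45. The body of PEG10 had no H3K36me3, and the nearest interval of that list was 596.4 kb from the TSS. PEG10 was thus a member whose canonical promoter carried the active marks, at a low level for the H3K4me3 list.

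**Figure D2:**
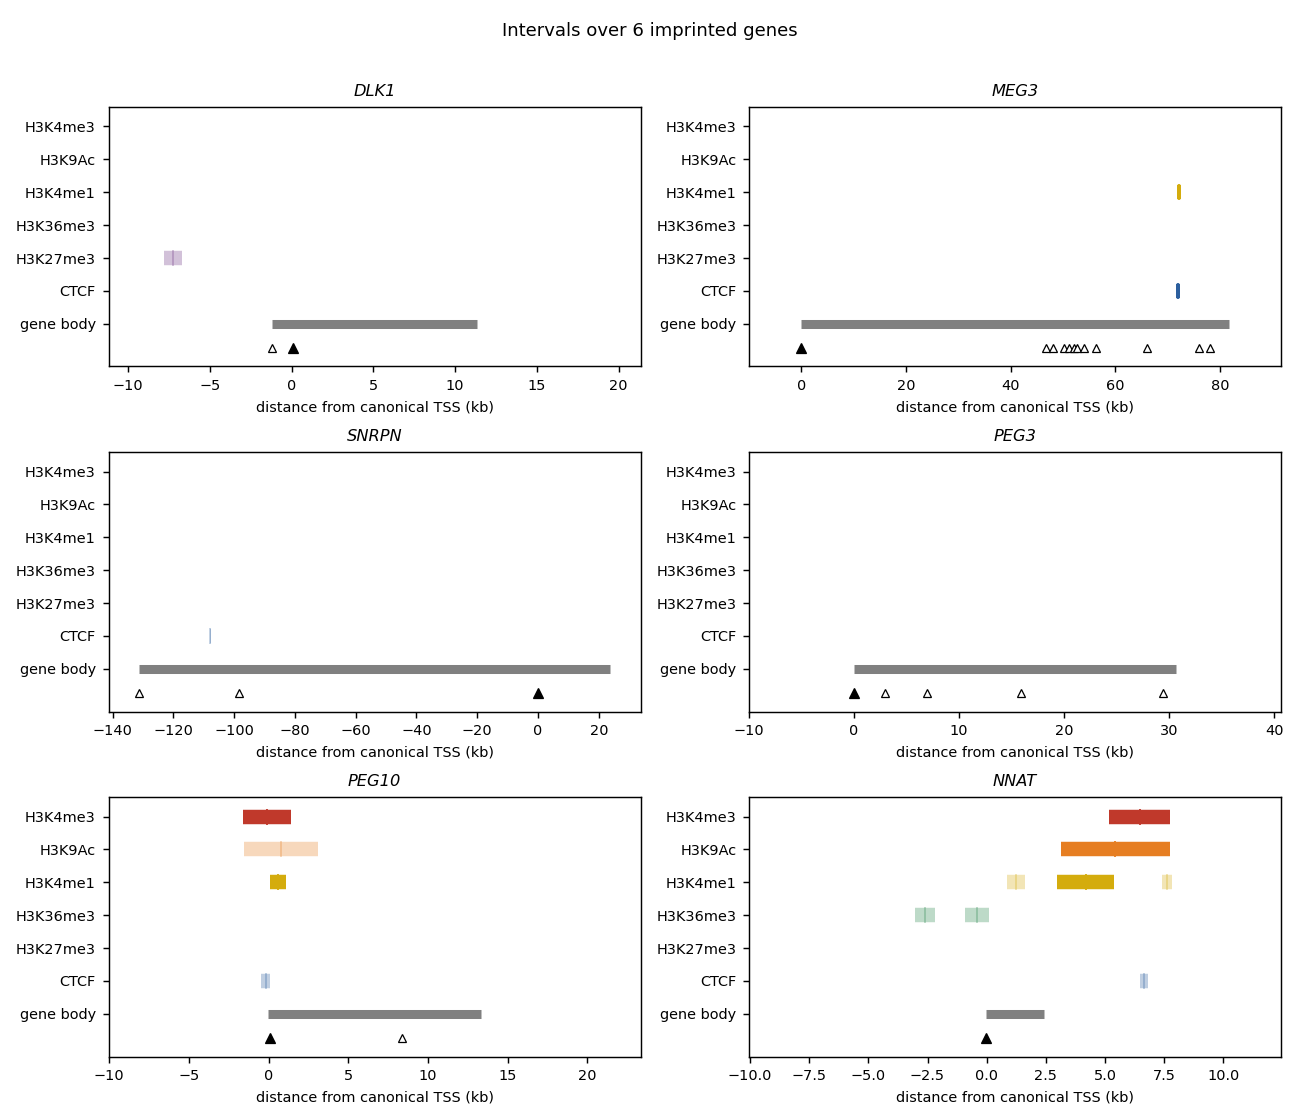
Intervals of the 6 lists over DLK1, MEG3, SNRPN, PEG3, PEG10 and NNAT, by distance from the canonical TSS (kb, in the direction of transcription). Solid blocks are past the limits and faded blocks are not, the grey bar is the gene body, and triangles are promoters (filled: canonical). No block lies over PEG3, and the H3K4me3 block of NNAT starts beyond the end of the gene.

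MEST encodes a protein of the alpha/beta hydrolase fold, and its paternally expressed transcripts start at the canonical promoter, while transcripts from an upstream promoter are less strictly imprinted. MEST (chr7:130126012-130146306, hg19, plus strand) had 7 intervals. H3K4me3 (chr7:130125941-130127221) lay at the upstream promoter, from 5985 to 4705 bp before the canonical TSS, at 15.8-fold enrichment (−log10 q-value 41.5). H3K9Ac, H3K4me1 and CTCF were past the limits at the same place, with fold enrichments of 9.28, 4.27 and 12.1. This CTCF peak was the only one of the 9 past the limits over the 10 genes that overlapped H3K4me3, and it did not hold the core sequence.

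At the canonical promoter of MEST, H3K4me3, H3K9Ac, H3K4me1 and CTCF were not called. H3K36me3 was called there instead (chr7:130130727-130132730), at 3.18-fold enrichment (−log10 q-value 2.05), short of the limits. This interval also covered the TSS of MESTIT1, an antisense non-coding RNA of the locus. A further H3K36me3 interval of 10080 bp (chr7:130138402-130148481) covered exons 7 to 12 of MEST with a fold enrichment of 3.15. It ran on past the end of the gene. A short H3K36me3 interval in intron 2 had 3.28. MEST thus had the promoter marks at its upstream promoter and H3K36me3 over its canonical promoter and its last exons. The 150 bases before the first TSS of each promoter are shown in hg19 on the plus strand with CpG in capitals, chr7:130125862-130126011 for the upstream and chr7:130131776-130131925 for the canonical promoter. The upstream stretch had 4 CpG and 38.0% G and C, and H3K4me3 covered 71 of its 150 bases and ran on downstream. The canonical stretch had 15 CpG and 71.3% G and C and lay outside H3K4me3.
MEST, upstream promoter: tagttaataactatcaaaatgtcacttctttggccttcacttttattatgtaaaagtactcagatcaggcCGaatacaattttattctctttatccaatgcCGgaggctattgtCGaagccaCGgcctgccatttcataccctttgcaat
MEST, canonical promoter: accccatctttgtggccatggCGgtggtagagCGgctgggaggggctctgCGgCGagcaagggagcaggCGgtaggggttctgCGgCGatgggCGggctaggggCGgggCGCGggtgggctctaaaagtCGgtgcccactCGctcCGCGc

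PLAGL1 encodes a zinc-finger transcription factor, and its paternally expressed transcripts start together with the non-coding RNA HYMAI. PLAGL1 (chr6:144261437-144385736, hg19, minus strand) had 15 intervals and was the only member with more than 1 H3K4me3 peak. The H3K4me3 peak at the canonical promoter (chr6:144327765-144330023), with the TSS of HYMAI under it, reached a 16.6-fold enrichment, with 49.4 as its −log10 q-value. The other (chr6:144384781-144386065) lay 55.4 kb upstream and had 13.6 and 32.4. H3K9Ac past the limits lay at both, with fold enrichments of 10.2 at the canonical and 12.03 at the upstream promoter. H3K4me1 differed more, with 7.04 at the upstream promoter, the highest of the 17 H3K4me1 intervals over the 10 genes, and 3.70 at the canonical promoter, where a −log10 q-value of 2.93 was just short of the limit of 3. Of the 6 annotated promoters of PLAGL1, the 3 farthest downstream had no H3K4me3 or H3K9Ac within 1 kb.

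CTCF past the limits lay at 2 places in PLAGL1, away from both H3K4me3 peaks, and each held the core sequence printed above. The peak 4628 bp upstream of the canonical TSS (chr6:144334024-144335168) had a fold enrichment of 15.2, at percentile 91.3 of the list. The peak over the last exon (chr6:144260852-144263801) had 11.04, and at 2950 bp it was the widest CTCF interval over the 10 genes. A weaker CTCF interval at the upstream promoter was enriched 6.45-fold (−log10 q-value 8.96). H3K36me3 was called in 5 short intervals along the gene, with fold enrichments from 2.51 to 2.77 and percentiles from 3.52 to 28.2, in the lower part of the list. H3K27me3 (fold enrichment 2.98) was called 309 bp from the H3K4me3 peak of the upstream promoter without overlapping it.

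NNAT encodes neuronatin, a small membrane protein, is expressed from the paternal copy and lies inside an intron of BLCAP, which is transcribed in the opposite direction. NNAT (chr20:36149608-36152092, hg19, plus strand) had 8 intervals in its region. At its only promoter, H3K4me3, H3K9Ac and CTCF were not called. H3K36me3 covered the TSS of NNAT and reached into exon 1 (chr20:36148757-36149732) at 3.16-fold enrichment (−log10 q-value 1.99), and another H3K36me3 interval 2158 bp upstream had 3.18. H3K4me1 over exons 2 and 3 was enriched 3.38-fold (−log10 q-value 2.35), short of the limits. The H3K4me3 peak in the region (chr20:36154842-36157407) began 2750 bp downstream of NNAT and covered the TSS of BLCAP. It had the highest fold enrichment of the 7, at 26.1, with a −log10 q-value of 83.2. H3K9Ac at BLCAP had 13.1, also the highest of the 11 H3K9Ac intervals over the 10 genes. H3K4me1 past the limits (5.23) began 543 bp downstream of NNAT and overlapped both this H3K9Ac and the H3K4me3 peak. The count of members with H3K4me3 in the region therefore includes NNAT on account of a neighbour, and the gene body of NNAT alone had none. The same holds for the count of H3K9Ac and, with all deposited intervals, for that of CTCF, since both intervals covered the TSS of BLCAP. The H3K4me1 past the limits that counts for NNAT also lay outside its gene body.

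GNAS encodes the Gs alpha subunit of the stimulatory G protein and, from upstream promoters, further products that are expressed from the maternal (NESP55) or the paternal (XL alpha s and A/B) copy. GNAS (chr20:57414773-57486247, hg19, plus strand) has 77 annotated transcripts from 15 promoters and had 20 intervals. A single H3K4me3 peak of 5590 bp (chr20:57463024-57468613), the widest of the 7, covered 28 TSSs from 3452 bp before to 2137 bp after the canonical TSS, where the A/B and Gs alpha transcripts start. Its fold enrichment was 20.1 and its −log10 q-value 57.0. H3K9Ac over the same promoters was 7356 bp wide with a fold enrichment of 12.9, and H3K4me1 was called on either side of the canonical TSS with 4.51 and 4.11. The remaining H3K4me1 peaks lay 15.1 kb after the canonical TSS in the gene (4.64) and 4830 bp past its end (3.68), and weak H3K9Ac with fold enrichments of 2.97 and 3.44 overlapped them.

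From 2253 bp after its canonical TSS to just past its end, GNAS was covered by H3K36me3 over 18068 bp (chr20:57468729-57486796), including exons 2 to 13. Its fold enrichment of 4.09 was the highest of the 14 H3K36me3 intervals over the 10 genes, at percentile 95.5 of the list, and its −log10 q-value of 3.96 was short of the limit of 10. The 5 promoters farthest upstream, which include those of NESP55 and XL alpha s, had no H3K4me3, H3K9Ac, H3K4me1 or H3K36me3. H3K27me3 was called in 5 intervals between 58.2 and 29.9 kb before the canonical TSS, with fold enrichments of 3.16, 2.64, 2.73, 3.05 and 2.89, all short of the limit on the q-value. CTCF past the limits lay at the most upstream promoter (fold enrichment 7.80) and at 20.7 kb (10.7) and 9951 bp (8.76) before the canonical TSS. None of the 6 CTCF intervals of GNAS held the core sequence. GNAS thus had the active marks over the A/B and Gs alpha promoters and the gene body. Weak H3K27me3 lay within 1 kb of some of the 5 promoters farthest upstream and was not called at the others.

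GRB10 encodes an adaptor protein that binds the insulin receptor, and its imprinting differs between promoters and tissues. GRB10 (chr7:50657760-50861159, hg19, minus strand) had 21 intervals along 203400 bp. H3K4me3 (chr7:50859595-50861772) lay at the upstream promoter, from 11179 to 9002 bp before the canonical TSS, at 23.2-fold enrichment (−log10 q-value 70.8). H3K9Ac and H3K4me1 were past the limits at the same promoter, with 10.6 and 4.10, and CTCF was weak, with 3.62. None of the other 12 promoters, the canonical one included, had an interval of any list within 1 kb. H3K27me3 with a fold enrichment of 2.71 was called 238 bp beyond the H3K4me3 peak, under the same H3K9Ac peak.

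Inside GRB10, H3K4me1 past the limits lay in intron 7 (chr7:50731222-50733638, fold enrichment 5.61), where weak H3K9Ac overlapped it (3.64), and in intron 4 (3.82). Of the 8 CTCF intervals of GRB10, 2 were past the limits. The one in intron 7 (chr7:50700461-50701083) had a fold enrichment of 10.3, held the core sequence and overlapped H3K4me1 of 3.39, and the other, in intron 5, had 8.03. H3K36me3 was called in 3 intervals with fold enrichments from 2.73 to 2.78. GRB10 and MEST thus shared H3K4me3 at the promoter farthest upstream and none at the canonical promoter. For GRB10 the 150 bases before the first TSS of both promoters are shown in the same way on the minus strand of hg19, chr7:50861160-50861309 for the upstream and chr7:50850608-50850757 for the canonical promoter. The upstream stretch, which lay wholly under H3K4me3, had 23 CpG and 79.3% G and C, and the canonical stretch, which lay outside it, had 9 CpG and 70.0%.
GRB10, upstream promoter: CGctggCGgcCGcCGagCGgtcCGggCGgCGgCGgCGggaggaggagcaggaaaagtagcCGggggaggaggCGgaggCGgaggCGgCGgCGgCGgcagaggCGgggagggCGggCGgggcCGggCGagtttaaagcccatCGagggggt
GRB10, canonical promoter: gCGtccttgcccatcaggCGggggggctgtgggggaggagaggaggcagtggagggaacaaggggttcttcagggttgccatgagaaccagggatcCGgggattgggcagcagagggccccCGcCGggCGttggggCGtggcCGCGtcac

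**Figure D3:**
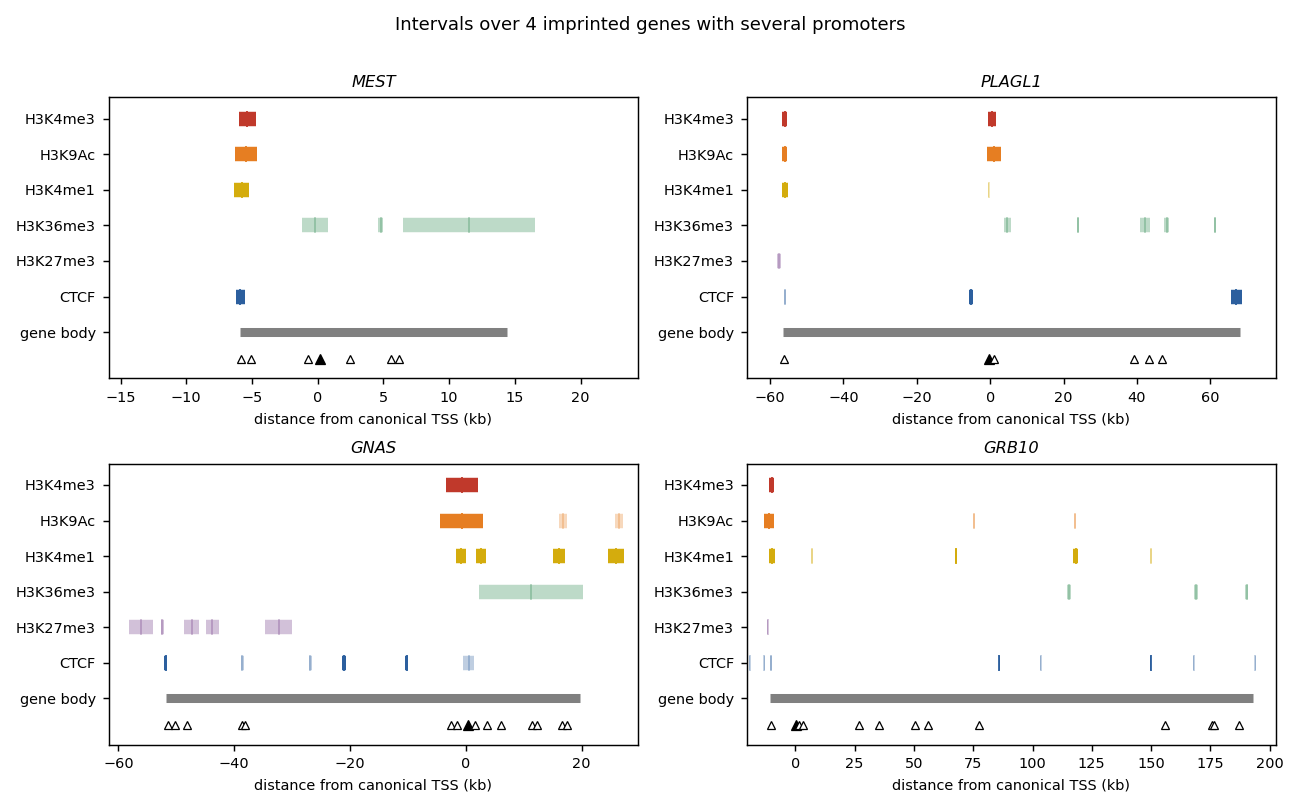
Intervals of the 6 lists over MEST, PLAGL1, GNAS and GRB10, by distance from the canonical TSS (kb, in the direction of transcription). Solid blocks are past the limits and faded blocks are not, the grey bar is the gene body, and triangles are promoters (filled: canonical). At MEST and GRB10 the H3K4me3 block lies upstream of the filled triangle, at PLAGL1 there are 2 blocks, and at GNAS 1 block spans the canonical TSS.

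Overlaps between marks over the 10 genes were set beside those of the whole lists. All 7 H3K4me3 intervals overlapped H3K9Ac, as 98.0% of all H3K4me3 intervals did, and all 7 overlapped H3K4me1, as 93.1% of all H3K4me3 intervals did. None of the 8 H3K27me3 intervals overlapped H3K4me3, and of all H3K27me3 intervals 1.43% did. These overlaps of the members were near those of the lists. In PLAGL1 and GRB10 an H3K27me3 interval lay 309 and 238 bp from H3K4me3. Both were short of the limit, with fold enrichments of 2.98 and 2.71. The share of all H3K27me3 intervals that lie this close was not counted. Of the 9 CTCF peaks past the limits, 3 (in MEG3, MEST and GRB10) overlapped H3K4me1, beside 37.2% of all CTCF peaks past the limits.

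**Figure D4:**
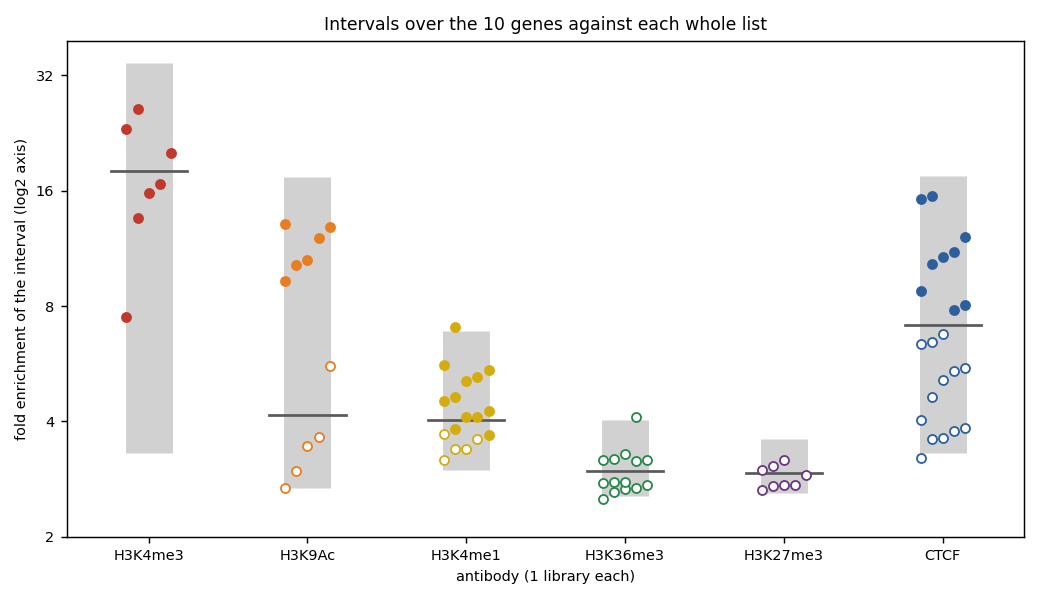
Fold enrichment (log2 axis) of each interval over the 10 genes, by antibody (1 library each). Filled points are past the limits and open points are not, the grey bar spans the 5th to the 95th percentile of the whole list and the line is its median. All 7 H3K4me3 points are filled, and all H3K36me3 and H3K27me3 points are open.

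The intervals over the 10 genes were also set beside the whole lists. The median H3K4me3 value over the members, whose 7 intervals were all past the limits, was 16.6. It was 18.0 for the whole list and 21.1 for its peaks past the limits. The median of H3K4me1 was 4.11, beside 4.02 for the list. H3K36me3 had a median of 2.77 over the members and 2.97 in the list, and H3K27me3 had 2.81 and 2.93. CTCF had 6.42 and 7.15, and H3K9Ac had 9.28 over the members and 4.16 in the list. For H3K9Ac the 2 sets differ in make-up, since 6 of 11 member intervals were past the limits, against 37.2% of the list. The member peaks past the limits ranged from 9.28 to 13.1, and the list median past the limits was 12.2. Of the 0.915 Mb of the 10 regions, deposited H3K36me3 intervals covered 4.75%, against 13.1% of the regions of all protein-coding genes, and H3K27me3 covered 1.83% against 7.38%. H3K4me1 covered 2.66% against 5.54%, and H3K9Ac 3.54% against 4.51%. H3K4me3 covered 1.98% against 1.74% and CTCF 1.73% against 1.57%, and with peaks past the limits alone CTCF covered 0.929% against 1.01%.

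The sequence of the canonical promoters of the 10 genes, from 250 bases before to 50 bases after the TSS, was searched for the motif TGCCGC of ZFP57, a zinc-finger protein that binds it when methylated and keeps the methylation of control regions. For MEG3 only 1 of 50 annotated transcripts starts there, and the promoter of 27 transcripts, 46688 bp downstream, was not searched. The motif was found on either strand at 6 of the 10 genes (DLK1, SNRPN, MEST, PLAGL1, GNAS and NNAT), beside 22.5% of all protein-coding genes. Among these 6, PLAGL1 and GNAS had H3K4me3 at that promoter, and DLK1, SNRPN, MEST and NNAT did not. The same promoters held 45 CpG for DLK1, 18 for SNRPN, 25 for MEST, 39 for PLAGL1, 45 for GNAS and 22 for NNAT. The members without the motif in these 300 bases held 8 CpG for MEG3, 16 for PEG3, 21 for PEG10 and 24 for GRB10. The median over all protein-coding genes was 23. In a wider window at the same TSSs the motif had 8 matches for GRB10, 6 for PEG3, 2 for MEG3 and 0 for PEG10. No share of all protein-coding genes was counted for the wider window. The YY1 motif was found in the same 300 bases at 0 of the 10 genes, PEG3 included, beside 8.08% of all protein-coding genes. These matches are letters of the reference and do not show binding.

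The same counts were made for a list of 32 other imprinted genes outside the chromosome 11 cluster, chosen by name. It includes long non-coding RNAs such as HYMAI and MESTIT1, whereas the shares given beside the counts are of protein-coding genes. Whether each gene is imprinted in these cells was not tested. H3K4me3 past the limits was found in the region of 17 of the 32, beside 69.1% of all protein-coding genes. H3K9Ac was found at 14, beside 68.3%, H3K4me1 at 14, beside 71.9%, and CTCF at 16, beside 62.4%. H3K27me3 was found at 2, beside 3.94%, and H3K36me3 at 0, beside 0.789%. Within 1 kb of the canonical TSS the counts were 15 for H3K4me3, beside 59.1%, 12 for H3K9Ac, beside 58.5%, and 4 for H3K4me1, beside 49.1%. The regions of some of the 32 overlap those of the members, so the lists are not separate. SGCE, HYMAI, SNURF and ZIM2 share a promoter with PEG10, PLAGL1, SNRPN and PEG3, so the same intervals are counted for them. BLCAP had H3K4me3 at its TSS where NNAT had none, and MESTIT1 and GNAS-AS1 had none.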

How the data were processed

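Peak lists of PIXUL-ChIP-seq in HCT116 cells were used, 1 list per library, for 6 of 7 libraries. Reads were aligned to hg19 with BWA by the authors, who ran MACS2 in its broad mode with 0.1 as the cutoff. The submitters' processing notes name BWA 0.7.12, SAMtools 0.1.19, bcl2fastq 2.20.0.442 and MACS 1.4.2. The fold enrichment deposited by the authors is a linear ratio over the caller's background. The p-value and the q-value, both deposited by the authors as −log10, belong to the whole interval. The deposited score column was not used. Peaks named in the H3K27me3 list do not carry the name of the cell line as those of the other lists do. Its label gives HCT116 and was followed. H3K27Ac was not analysed here.

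The q-value and fold limits of the study's methods were applied, and CTCF was treated as the marks with the stricter limits. Genes, canonical transcripts and TSSs came from GENCODE 44 on hg19. An overlap needed at least 1 bp. Regions were the gene body with 10 kb on each side, TSS windows were 1 kb on each side, and promoters were TSSs joined within 500 bp. A percentile is the place of an interval's fold enrichment in its own list. Sequences and motif matches were read from hg19 on both strands. Python 3.11.15, numpy 2.4.6, pyfaidx 0.9.0.4, matplotlib 3.10.9, samtools 1.23.1 and bedtools 2.31.1 were used. The overlap code was tested on 2000 simulated queries, of which 0 differed, and checked against bedtools on the real lists, of which 0 differed.

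The members and lists were chosen with earlier results of these data known. All 10 members are named, and other genes only where their TSS lies in a member's region or under an interval that reaches into it, apart from UBE3A and the cell type markers. With 1 library per antibody no test between samples was possible. The depth of the libraries is unknown, which limits what was called. Alternatives were all deposited intervals, a fold limit multiplied by 1.5, other flanks and windows, an overlap of at least 50% and every annotated TSS.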

Additional observations from a re-analysis of the deposited data

How the results depend on the processing

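Of 60 alternatives, 49 left the number of members with a peak within 1.5 times the reported number and 11 did not. For H3K36me3 and H3K27me3, and for CTCF at the TSS, the reported number was 0. Stricter settings could only return 0 for these, so part of the 49 could not have moved. With every annotated TSS in place of the canonical one, H3K4me3 past the limits was found at 5 members, H3K9Ac at 4, H3K4me1 at 5 and CTCF at 2. With all deposited intervals, H3K36me3 was found in the regions of 5 members and at the TSS of 2, H3K27me3 in the regions of 4, CTCF in the regions of 8 and at the TSS of 2, and H3K4me1 at the TSS of 4. With 50 kb around the gene body, H3K27me3 past the limits was found at 2 members, NNAT and GNAS. No share of all protein-coding genes was counted for this flank or for deposited intervals at the TSS, so these counts have no background beside them. These settings admit more intervals, more TSSs or wider regions by construction. No paired analysis was possible because no antibody was used on more than 1 well, and no replicate could be left out. What the unknown depth hid, at PEG3 and SNRPN among others, was not tested.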
